A study of Mus musculus with 5 samples.

Results

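The epidermal differentiation complex is a run of neighbouring genes that encode structural proteins of the cornified envelope, the cross-linked protein shell of the outermost skin cells. Its genes, with cornified envelope and early differentiation genes that lie elsewhere in the genome, were followed in 5 single-cell RNA-seq libraries of mouse mammary tissue. The set took every gene whose symbol starts with Sprr or Lce, plus Lor, Flg, Flg2, Ivl, Rptn, Hrnr, Crnn, Krtdap, Sbsn, Dmkn, Cnfn, Tgm1, Tgm3, Krt1 and Krt10, whatever its level. It held 57 of the 27998 gene identifiers in the count tables under 51 symbols, of which 15 were Sprr identifiers, 21 were Lce identifiers and 21 were others, with 7 identifiers named Flg. At least 1 UMI (unique molecular identifier, 1 counted RNA molecule) was found for 45 members and none for 12, and the pseudogene Sprr2j-ps stayed in because it had UMIs. On the mm10 coordinates of GENCODE M21, 43 members lay on chromosome 3 between positions 92080271 and 93399442, 8 lay on other chromosomes and 6 of the Flg identifiers were not in that annotation.

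In stratified epithelium, keratinocytes leave the basal layer, make Krt1 and Krt10 filaments and then build the cornified envelope from below the plasma membrane. Involucrin (Ivl) and the small proline-rich proteins (Sprr) are cross-linked by the transglutaminases Tgm1 and Tgm3, while loricrin (Lor) and the late cornified envelope proteins (Lce) are added later and filaggrin (Flg) bundles the keratin filaments. Some Sprr genes are also known to be induced in simple epithelia under stress or injury. Mammary ducts are lined by luminal alveolar, luminal hormone-sensing and basal cells, which do not cornify in the normal gland.

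All mice carried Krt14cre, which drives Cre recombinase in cells that express Krt14, together with homozygous floxed Trp53. BPK mice also carried a single floxed Brca1 allele (Brca1 wt/flox), and PK mice had none (Brca1 wt/wt). The groups were a BPK tumor that arose after 24 injections of 4NQO (1 library), BPK glands given 12 intraductal injections of 4NQO (BPK 4NQO, 2 libraries), a PK gland given 12 (PK 4NQO, 1 library) and a BPK gland given 12 injections of the PBS/PEG vehicle (BPK vehicle, 1 library). 4NQO (4-nitroquinoline 1-oxide) is a DNA-damaging carcinogen. Ages are not given in the labels, and nothing says whether the libraries came from separate animals. P-values therefore measure only the spread between these samples, which may be technical, and every test below takes its spread from the pair of BPK 4NQO libraries. Tumor tissue and the larger number of injections cannot be told apart in the tumor comparison.

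Libraries held 27383717 to 64169843 UMIs in 2654 to 9610 cell barcodes, and 31526 of 34526 barcodes were kept. Pairs of libraries had 26 to 107 cell barcodes in common, except that BPK 4NQO replicate 2 had only 1 to 2 in common with each of the others and stands apart in this respect. Cells were clustered without the member genes and clusters were named from marker genes, which gave luminal alveolar-like, luminal hormone-sensing-like, basal epithelium-like and keratinocyte-like cells (below, alveolar, hormone-sensing, basal and keratinocyte-like cells). Replicate 2 also stood apart when all cells were clustered together. It gave 1508 of the 1543 cells of a hormone-sensing cluster and 826 of the 828 of a basal cluster. The largest basal and hormone-sensing clusters, of 3846 and 3322 cells, held 11 and 5 of its cells. The spread of the BPK 4NQO pair includes this difference, and its cause was not tested. Keratinocyte-like cells numbered 1066 in the tumor, 55 and 79 in BPK 4NQO, 51 in PK 4NQO and 15 in BPK vehicle. Of the 14 keratinocyte markers that named them, 14, 13, 14, 12 and 8 had a UMI in these libraries in that order. Krt6a, Krt6b, Krt16, Krt80, Gjb2 and Gjb6 were at 0 in the BPK vehicle cells. Hormone-sensing cells numbered 142 in the tumor, 1918 and 717 in BPK 4NQO, 1459 in PK 4NQO and 1545 in BPK vehicle. Levels are CPM, a gene's UMIs scaled to a common total of all UMIs of a class in a library, and a level over all epithelial cells does not separate fewer cells of a type from less RNA per cell, which cannot be told apart. As 3' UMI counts carry no length correction for comparing genes, each gene is compared with itself.

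The promoters of 5 members are shown as examples, 4 from the chromosome 3 complex and Krtdap from chromosome 7. They do not stand for all members. Each is 300 bases long, from 250 bases before the RefSeq start of the gene to 50 after it (build GRCm38.p6), read 5′ to 3′ on the gene's strand. Capitals mark the AP-1 motif TGANTCA and the TATA box letters TATAAA. The windows are chr3:92485832-92486131 on the minus strand for Sprr1a, chr3:92364937-92365236 on the plus strand for Sprr2f, chr3:92338890-92339189 on the plus strand for Sprr2d, chr3:92944236-92944535 on the plus strand for Lce3c and chr7:30787655-30787954 on the plus strand for Krtdap.
Sprr1a: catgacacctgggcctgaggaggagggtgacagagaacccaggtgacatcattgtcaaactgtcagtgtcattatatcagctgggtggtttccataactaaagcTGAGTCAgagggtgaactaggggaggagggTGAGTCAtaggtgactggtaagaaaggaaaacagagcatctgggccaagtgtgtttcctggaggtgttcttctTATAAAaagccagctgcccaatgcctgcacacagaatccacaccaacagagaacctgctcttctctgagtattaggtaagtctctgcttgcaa
Sprr2f: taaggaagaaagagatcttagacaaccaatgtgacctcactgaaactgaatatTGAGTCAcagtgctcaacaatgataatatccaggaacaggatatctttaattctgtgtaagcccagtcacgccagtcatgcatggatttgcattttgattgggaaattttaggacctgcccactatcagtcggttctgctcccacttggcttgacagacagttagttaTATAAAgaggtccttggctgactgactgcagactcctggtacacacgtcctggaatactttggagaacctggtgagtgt
Sprr2d: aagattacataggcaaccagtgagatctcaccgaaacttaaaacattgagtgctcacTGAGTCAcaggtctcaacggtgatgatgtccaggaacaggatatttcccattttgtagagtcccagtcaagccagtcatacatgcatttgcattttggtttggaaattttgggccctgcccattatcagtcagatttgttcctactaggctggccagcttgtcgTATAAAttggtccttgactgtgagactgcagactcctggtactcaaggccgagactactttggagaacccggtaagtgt
Lce3c: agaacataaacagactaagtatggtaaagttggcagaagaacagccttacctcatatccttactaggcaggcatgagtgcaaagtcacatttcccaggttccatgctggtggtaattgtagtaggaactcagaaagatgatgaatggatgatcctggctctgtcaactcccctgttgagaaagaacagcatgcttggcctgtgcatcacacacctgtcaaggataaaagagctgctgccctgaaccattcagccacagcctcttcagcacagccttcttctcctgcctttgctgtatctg
Krtdap: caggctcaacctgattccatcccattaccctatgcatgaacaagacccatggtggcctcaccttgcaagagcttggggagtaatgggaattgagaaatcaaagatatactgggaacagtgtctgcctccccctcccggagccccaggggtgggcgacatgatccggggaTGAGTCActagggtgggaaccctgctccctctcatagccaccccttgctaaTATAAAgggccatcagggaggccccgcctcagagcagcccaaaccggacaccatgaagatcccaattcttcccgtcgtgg

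Sprr1a held 2 AP-1 matches, Sprr2f, Sprr2d and Krtdap held 1 each, and the Lce3c window held neither set of letters. The windows of Sprr2a3 and Cnfn, which are not shown, also held neither. The TATA letters began at position -43 in Sprr1a, -29 in Sprr2f and Sprr2d and -30 in Krtdap, counted from the start. RefSeq windows were found for 48 of the 51 symbols, giving 51 promoters. Searched on both strands, the AP-1 letters were found in 20 of these promoters (39.2%) and in 7.81% of all 32851 promoters of the same length. They were in 9 of 14 Sprr promoters and in 0 of 20 Lce promoters. The TATA letters were found in 45.1% of member promoters and 13.6% of all promoters, with 10 of 14 for Sprr and 4 of 20 for Lce. The other motifs had shares close to the background. CACCC (a KLF core) was in 56.9% of member promoters and 57.5% of all, CAGGAAG (ETS) in 11.8% and 13.3%, and AACCNGTT (GRHL) in 1.96% and 2.09%. A match is only a description of these letters, and neighbouring genes of a family share sequence.

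The shares of member UMIs by class differed between the tumor and the glands. Keratinocyte-like cells held 91.7% of member UMIs in the tumor, 5.46% and 26.6% in BPK 4NQO, 10.2% in PK 4NQO and 7.90% in BPK vehicle. Hormone-sensing cells held 1.85% in the tumor, 69.1% and 35.2% in BPK 4NQO, 26.5% in PK 4NQO and 26.1% in BPK vehicle. Alveolar cells held 0.384% in the tumor, 17.2% and 15.5% in BPK 4NQO, 45.0% in PK 4NQO and 44.4% in BPK vehicle. Of the 4 named epithelial classes, the one with the largest share was thus keratinocyte-like in the tumor, hormone-sensing in both treated BPK glands and alveolar in the PK and vehicle glands. These shares also follow the number of UMIs that each class held. In the PK and vehicle glands the summed level was 137 and 135 CPM in alveolar cells but 154 and 183 CPM in hormone-sensing cells. Of the 4 classes, keratinocyte-like cells had the highest summed level in every library.

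Summed over members, the level in all epithelial cells was 4349 CPM in the tumor, 330.4 and 618.9 CPM in BPK 4NQO (475 ± 204, SD, n = 2), 163.2 CPM in PK 4NQO and 159.6 CPM in BPK vehicle. Both treated BPK glands lay above the PK and vehicle glands, and the tumor lay above all of them. Members with a UMI were counted over all barcodes, also those that were not kept. They numbered 44 in the tumor, 23 and 25 in BPK 4NQO, 17 in PK 4NQO and 22 in BPK vehicle. On the same basis, UMIs of 13 members were found in the tumor library only.

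**Figure D1:**
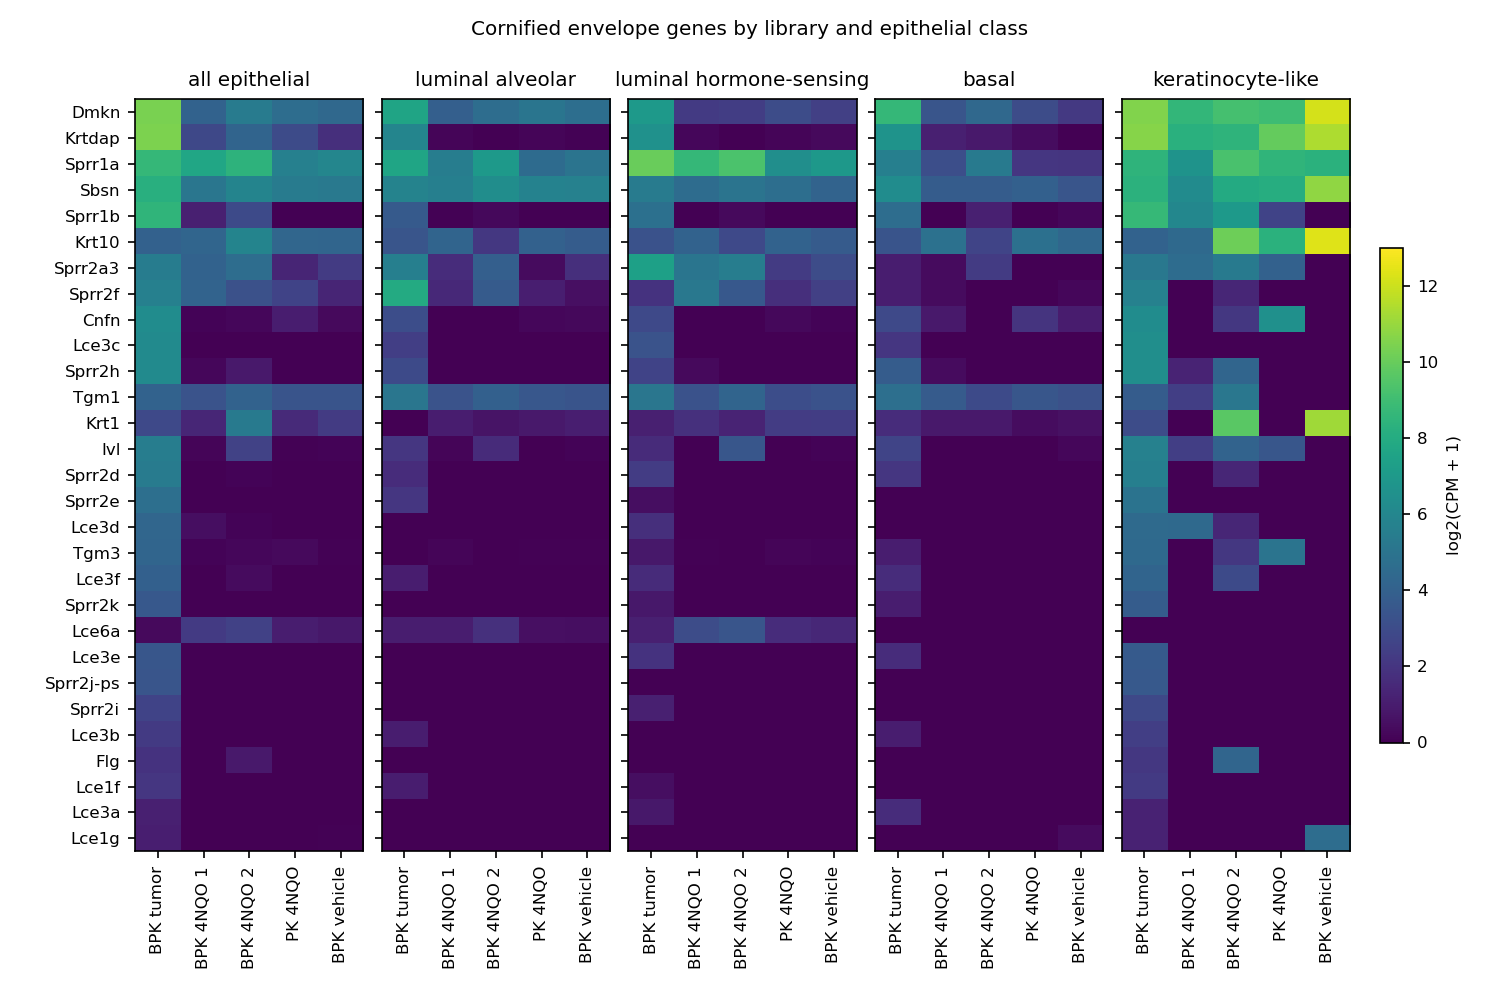
Levels of 29 members (rows) in the 5 libraries (columns) within all epithelial cells and 4 epithelial classes (panels), colored by log2(CPM + 1). Sprr1a is present in every library, while most Sprr2 and Lce3 rows of the all-epithelial panel are highest in the tumor.

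Sprr1a, which encodes a small proline-rich precursor of the envelope, was the member with the highest level in the treated BPK glands. In hormone-sensing cells it stood at 1029 CPM in the tumor, 404 and 633 CPM in BPK 4NQO, 85.3 CPM in PK 4NQO and 122 CPM in BPK vehicle. Over all epithelial cells it stood at 401 CPM in the tumor, 206 and 338 CPM in BPK 4NQO, 50.2 CPM in PK 4NQO and 61.7 CPM in BPK vehicle. Both treated BPK libraries lay above both other glands in both measures. In hormone-sensing cells the BPK 4NQO level was 5.27 times the PK 4NQO level (exact 95% interval of the pooled counts 4.89 to 5.69, counting error only) and 3.70 times the BPK vehicle level (3.50 to 3.90). Neither difference passed the test against the spread of the pair of libraries (edgeR quasi-likelihood log2 fold change 2.35, SE 1.16, adjusted p = 1 over PK; 1.86, SE 1.13, adjusted p = 1 over vehicle). Hormone-sensing cells held 13.2% of Sprr1a UMIs in the tumor, 88.0% and 59.6% in BPK 4NQO, 49.8% in PK 4NQO and 47.9% in BPK vehicle.

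Sprr2a3, a further small proline-rich gene, stood in hormone-sensing cells at 167 CPM in the tumor, 31.8 and 43.8 CPM in BPK 4NQO, 3.73 CPM in PK 4NQO and 6.99 CPM in BPK vehicle. Sprr2f stood there at 2.77 CPM in the tumor, 35.3 and 11.1 CPM in BPK 4NQO, 2.33 CPM in PK 4NQO and 4.53 CPM in BPK vehicle. Lce6a, a late cornified envelope gene, stood at 1.19 CPM in the tumor, 7.0 and 9.86 CPM in BPK 4NQO, 2.10 CPM in PK 4NQO and 1.75 CPM in BPK vehicle. For these 3 genes, as for Sprr1a, both BPK 4NQO libraries lay above the other glands. How many of all genes do so is not given here, so this describes these genes only. In the tumor, Sprr1a and Sprr2a3 lay above the treated glands, whereas Sprr2f and Lce6a lay below them. Sprr2f in the treated BPK glands came from few cells, with UMIs in 42 of 1918 and 9 of 717 hormone-sensing cells.

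**Figure D2:**
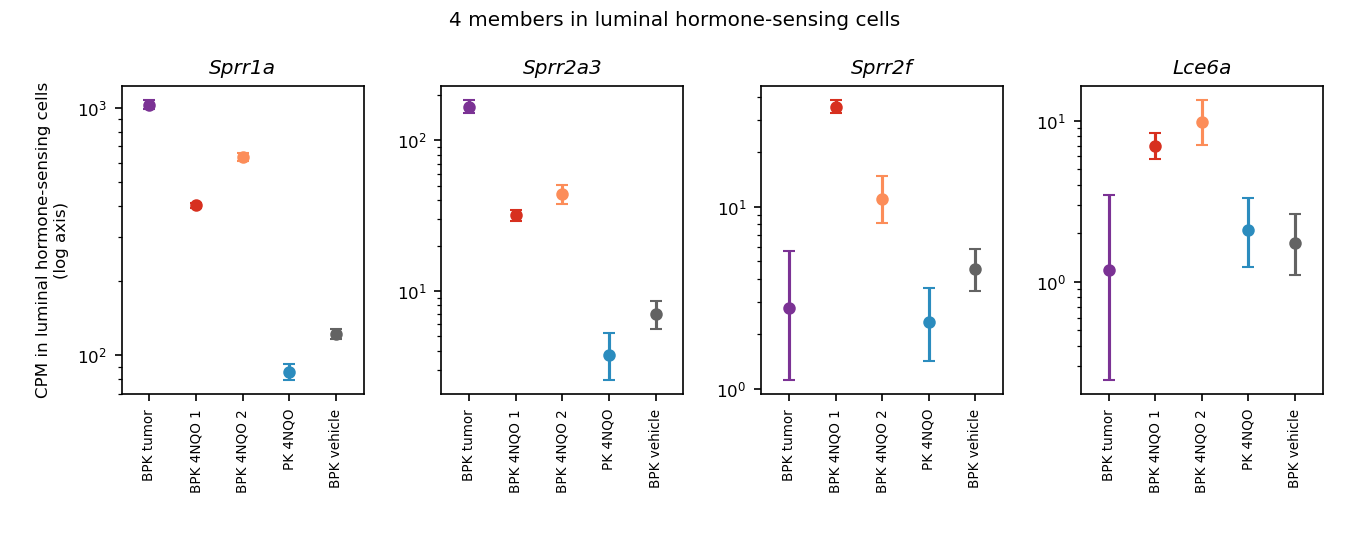
CPM (log axis) of Sprr1a, Sprr2a3, Sprr2f and Lce6a in luminal hormone-sensing-like cells of each library, with bars for the exact 95% Poisson interval of the count (counting error only). Both BPK 4NQO points lie above PK 4NQO and BPK vehicle for all 4 genes.

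Within hormone-sensing cells no member passed the test in either gland comparison. Against BPK vehicle, 0 of 12 tested members were called by edgeR (0.298% of all genes tested there were called in either direction), 4 had an unadjusted p under 0.05, and DESeq2 also called 0. Against PK 4NQO, 0 of 12 were called (0.204% of all genes), 5 had an unadjusted p under 0.05, and DESeq2 called 0. Over PK, Sprr2f (log2 fold change 3.21, SE 0.84, adjusted p = 0.0637) and Sprr2a3 (3.10, SE 0.86, adjusted p = 0.11) stayed above the threshold of 0.05. Lce6a had log2 fold changes of 1.76 over PK and 2.04 over vehicle, with adjusted p = 1 for both by edgeR. Ivl, the gene of the early envelope protein involucrin (adjusted p = 0.141 over vehicle and 0.105 over PK), had 0 CPM in BPK 4NQO replicate 1 and 10.3 CPM in replicate 2, from 43 UMIs in 14 of 717 cells. On data simulated from the real libraries over all epithelial cells, the same test found 7.46% of genes changed 4-fold and 86.6% of those changed 16-fold in each gland comparison.

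The share of cells with any member UMI was compared after each cell was thinned to 1500 UMIs, because median depth in hormone-sensing cells was 15439 UMIs in the tumor, 6640.5 and 4246 in BPK 4NQO, 4819 in PK 4NQO and 6274 in BPK vehicle. The share of hormone-sensing cells was 70.5% in the tumor (exact 95% interval 62.2 to 77.9), 28.7% (26.7 to 30.8) and 33.0% (29.3 to 36.8) in BPK 4NQO, 15.9% (14.1 to 17.9) in PK 4NQO and 17.0% (15.2 to 19.0) in BPK vehicle. Thinning left out 3 cells of the tumor, 61 and 101 of BPK 4NQO, 10 of PK 4NQO and 7 of BPK vehicle. These intervals cover the counting of cells within 1 library, not the spread between glands, and the shares were higher in both treated BPK glands than in the other glands. Unthinned, the shares were 97.9% in the tumor, 58.3% and 49.2% in BPK 4NQO, 39.3% in PK 4NQO and 44.9% in BPK vehicle. Endothelium-like cells, which should lack these genes, had thinned shares of 34.0% in the tumor (median depth before thinning 10188 UMIs), 4.48% and 1.81% in BPK 4NQO (2412 and 2386.5), 2.89% in PK 4NQO (1684) and 2.96% in BPK vehicle (2129). In every library the hormone-sensing share lay above that endothelial background, which was highest in the tumor. Fibroblast-like cells had thinned shares of 57.9% in the tumor, 21.1% and 17.7% in BPK 4NQO, 17.4% in PK 4NQO and 18.8% in BPK vehicle. The hormone-sensing share thus lay below theirs in PK 4NQO and BPK vehicle. Alveolar cells of PK 4NQO and BPK vehicle had shares of 15.2% and 15.9%, close to those of hormone-sensing cells.

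For Sprr1a alone the thinned share of hormone-sensing cells was 47.5% in the tumor, 21.6% and 25% in BPK 4NQO, 7.04% in PK 4NQO and 10.2% in BPK vehicle. In alveolar cells it was 11.4% in the tumor, 4.19% and 5.45% in BPK 4NQO, 1.93% in PK 4NQO and 2.08% in BPK vehicle. In endothelium-like cells it was 3.92% in the tumor, 0.426% and 0.302% in BPK 4NQO and 0.539% in BPK vehicle, with none of 553 cells in PK 4NQO. The order of these classes was thus the same in each library, with hormone-sensing cells above alveolar cells and alveolar cells above endothelium. In keratinocyte-like cells the share was 18.7% in the tumor, 14.5% and 24.3% in BPK 4NQO, 4.08% in PK 4NQO and 10% of 10 cells in BPK vehicle. Those values lay between the hormone-sensing and alveolar shares. Basal cells of BPK vehicle, at 0.444%, lay below its endothelium.

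Sprr1a also varied among sub-clusters of cells that scored highest for hormone-sensing markers. The lowest, median and highest sub-cluster levels were 434, 468 and 1408 CPM in the tumor. They were 169, 308 and 926 CPM in BPK 4NQO replicate 1 and 39.1, 479 and 1383 CPM in replicate 2. In PK 4NQO they were 38.4, 85.4 and 312 CPM, and in BPK vehicle 59.9, 130 and 461 CPM. The median sub-cluster of both treated BPK glands lay above the median of the PK and vehicle glands, but the ranges overlapped. The highest sub-cluster of BPK 4NQO replicate 1 (115 cells) had Ido1, Aoc1 and Defb1 among its leading genes. Aoc1 and Defb1 also led the highest sub-cluster of replicate 2 (54 cells, not named), and Ido1 was among the leading genes of the highest one in BPK vehicle (117 cells, not named).

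**Figure D3:**
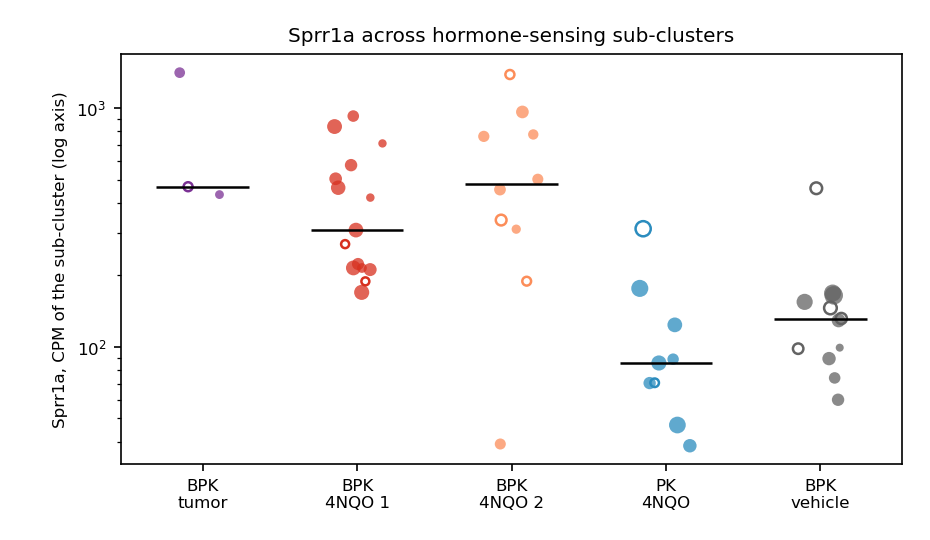
Sprr1a level (CPM, log axis) of each sub-cluster scored as hormone-sensing, by library, with filled points for named and open points for unnamed sub-clusters, point area growing with the number of cells and a line at the median. The median lies at 308 and 479 CPM in BPK 4NQO, 85.4 CPM in PK 4NQO and 130 CPM in BPK vehicle.

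Over all epithelial cells, BPK 4NQO differed from BPK vehicle in 2 of 17 tested members, both higher (0.412% of all genes tested were called higher). Sprr1b, the close relative of Sprr1a in the complex, stood at 1.24 and 6.6 CPM in BPK 4NQO and 0.0195 CPM in BPK vehicle (edgeR log2 fold change 7.07, SE 1.46, adjusted p = 0.00115). The vehicle value is 1 UMI, and the ratio of pooled counts was 135 with an exact 95% interval of 23.8 to 5382. Sprr1b passed the filter on low counts through BPK 4NQO only, so its direction was fixed by the filter. Sprr2f stood at 16.8 and 8.49 CPM in BPK 4NQO and 1.54 CPM in BPK vehicle (log2 fold change 2.93, SE 0.75, adjusted p = 0.0248), a call that DESeq2 did not make (adjusted p = 0.0974). The members tested had a median log2 fold change of 2.04, beside -0.0083 over all genes. For Sprr1a the edgeR log2 fold change was 1.91 (SE 0.95, adjusted p = 1).

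Against PK 4NQO, 3 of 17 tested members were higher in BPK 4NQO (0.286% of all genes tested were called higher). Sprr2a3 stood at 15.8 and 23.8 CPM in BPK 4NQO and 1.58 CPM in PK 4NQO (edgeR log2 fold change 3.39, SE 0.77, adjusted p = 0.00617). Sprr1b stood at 1.24 and 6.6 CPM in BPK 4NQO and 0.0344 CPM, again 1 UMI, in PK 4NQO (6.33, SE 1.46, adjusted p = 0.00757). Here too Sprr1b passed the filter through BPK 4NQO only, so its direction was fixed by the filter. Krt1, the type II keratin of the first suprabasal layers, stood at 1.65 and 39.8 CPM in BPK 4NQO and 1.96 CPM in PK 4NQO (3.0, SE 0.75, adjusted p = 0.0263). The groups overlapped for Krt1, since replicate 1 lay below PK 4NQO, and without replicate 2 its log2 fold change was -0.26. DESeq2 called only Sprr2a3 (adjusted p = 0.239 for Sprr1b). Both gland comparisons share the BPK 4NQO libraries.

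Sprr1b lay almost wholly in the few keratinocyte-like cells of the treated BPK glands, which held 44 of its 46 UMIs in replicate 1 and 79 of its 86 in replicate 2. These came from 12 of 55 and 16 of 79 keratinocyte-like cells. Its epithelial level thus followed a class that made up a small part of the epithelium, unlike Sprr1a, Sprr2a3 and Lce6a.

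In alveolar cells, Sprr2f was the 1 of 11 tested members higher in BPK 4NQO than in BPK vehicle (0.315% of all genes), at 1.86 and 12.2 CPM in BPK 4NQO and 0.446 CPM in BPK vehicle. The edgeR log2 fold change was 3.69 (SE 0.92, adjusted p = 0.0207), but 59 of the 60 UMIs of replicate 2 came from 1 cell, and without the richest cell of each library the value was 0.67 (adjusted p = 1). Against PK 4NQO, Sprr2a3 was the 1 of 11 tested members called higher (0.24% of all genes), at 2.12 and 14.1 CPM in BPK 4NQO and 0.305 CPM in PK 4NQO (log2 fold change 4.42, SE 0.95, edgeR adjusted p = 0.00332). The PK 4NQO value of Sprr2a3 is 5 UMIs, and BPK vehicle, at 2.33 CPM, lay above replicate 1 of BPK 4NQO. In both calls only BPK 4NQO, of the groups compared, was at a level that passed the filter, so they describe these genes only. DESeq2 made neither call.

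In basal cells, 0 of 5 tested members were called by edgeR against BPK vehicle (0.576% of all genes in either direction) and 0 of 5 against PK 4NQO (0.201%), with 2 and 1 at an unadjusted p under 0.05 and 0 called by DESeq2 in both. Sprr1a stood at 7.66 and 37.9 CPM in basal cells of BPK 4NQO, 3.20 CPM in PK 4NQO and 3.03 CPM in BPK vehicle. Both treated BPK libraries lay above the others (over vehicle, log2 fold change 2.61, SE 0.76, adjusted p = 0.0938).

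Keratinocyte-like cells of the glands held the early differentiation genes in uneven amounts. Krt10, the type I partner of Krt1, stood at 16 CPM in the tumor, 20.6 and 1104 CPM in BPK 4NQO, 315 CPM in PK 4NQO and 5234 CPM in BPK vehicle. Krt1 stood at 7.01 CPM in the tumor, 0 and 822 CPM in BPK 4NQO, 0 CPM in PK 4NQO and 2299 CPM in BPK vehicle. Few cells carried these values, as 214 Krt10 UMIs of BPK vehicle came from 6 of 15 cells, 58 of 62 in PK 4NQO from 1 cell, and 496 Krt1 UMIs of BPK 4NQO replicate 2 from 8 of 79 cells. The tumor lay below BPK 4NQO replicate 2 and BPK vehicle for both keratins.

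Replicate 2 of BPK 4NQO held a group of 16 keratinocyte-like cells, led by BC100530, Stfa3, Calm4, Krt6b and Csta1, with a summed member level of 20697 CPM. Its other 63 keratinocyte-like cells, led by Cst6, Klk6 and S100g, had 1255 CPM. Sprr1a stood at 1911 CPM in the first group and 409 CPM in the second, and Sprr1b at 598 and 54.0 CPM. These groups come from the same cells that are described, so no test is given. Alveolar markers summed to 983 and 6034 CPM in keratinocyte-like cells of the BPK 4NQO libraries and to 147 CPM in BPK vehicle, and their part in the result was not tested.

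Markers of other skin structures were low. Hair follicle markers had 97 UMIs in the tumor's keratinocyte-like cells, 6 and 0 in BPK 4NQO, 6 in PK 4NQO and 1 in BPK vehicle, and over all cells the list summed to at most 2.59 CPM in any library. The melanocyte marker Dct was at 0 in every library, and the melanocyte list had 3 UMIs in keratinocyte-like cells of the tumor and 0 in those of the glands. Sebaceous markers had 35 UMIs there in the tumor and 2, 0, 0 and 0 in the glands.

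BPK vehicle had too few keratinocyte-like cells for a test of that class. Against PK 4NQO, 10 members were tested and Cnfn alone was called, lower in BPK 4NQO (0.0618% of all genes tested were called lower). Cnfn, which encodes cornifelin, an envelope component, stood at 0 and 3.31 CPM in BPK 4NQO and 91.5 CPM in PK 4NQO (edgeR log2 fold change -5.79, SE 1.27, adjusted p = 0.00872). All 18 PK 4NQO UMIs of Cnfn lay in 1 cell, so that the call rests on that cell, and Cnfn passed the filter through PK 4NQO only.

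**Figure D4:**
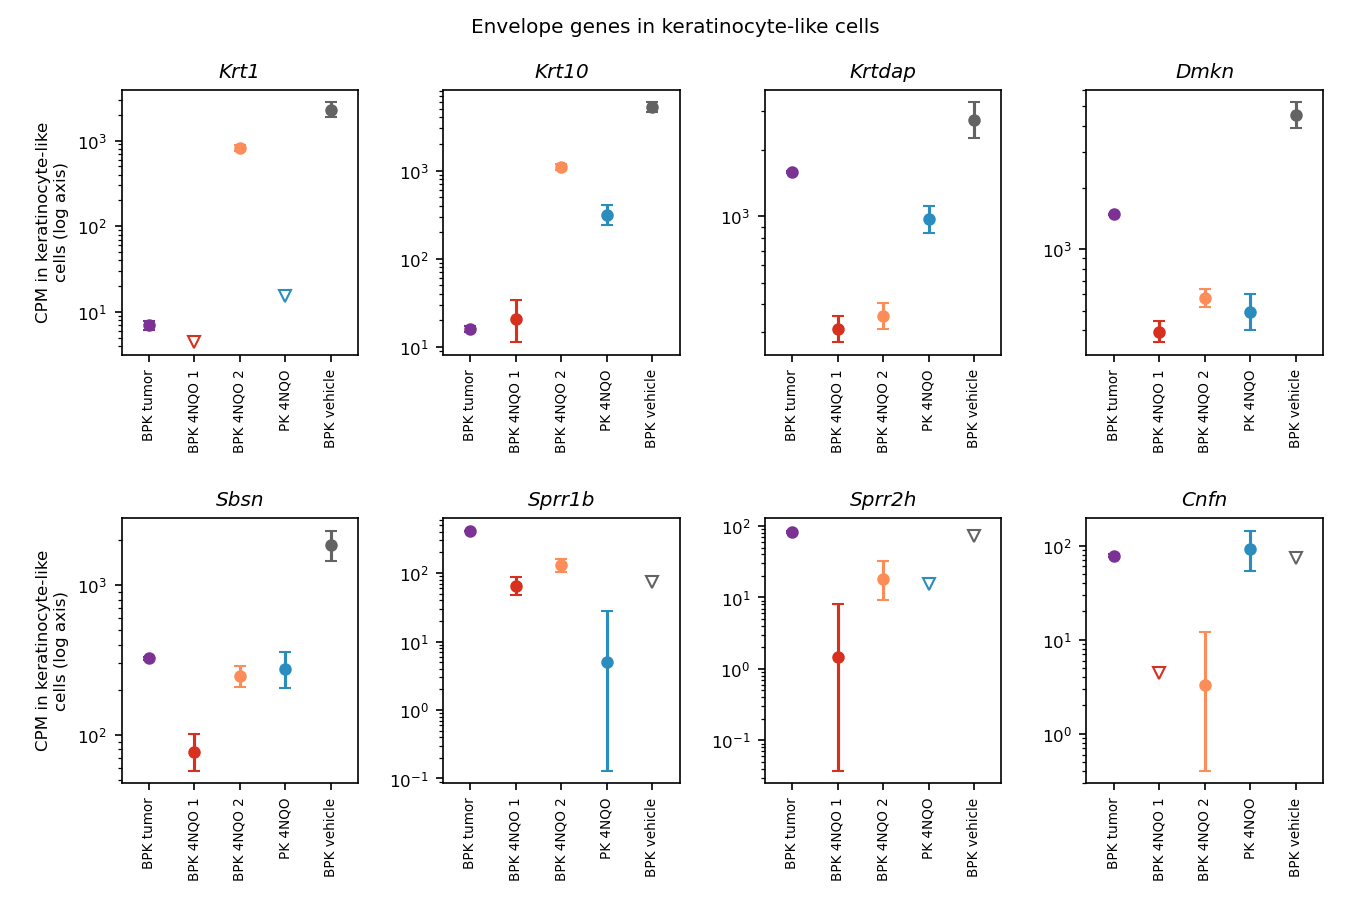
CPM (log axis) of 8 members in keratinocyte-like cells of each library, with bars for the exact 95% Poisson interval of the count and open triangles at the floor of 3 counts where no UMI was found. Krt1 and Krt10 are highest in BPK vehicle and low in the tumor, while Sprr1b, Sprr2h and, apart from PK 4NQO, Cnfn are highest in the tumor.

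The tumor was compared with BPK 4NQO over all epithelial cells, where 33 of the 57 members passed the filter on low counts. Of these, 23 were higher in the tumor (7.68% of all genes tested) and 1 was lower (7.81% of all genes), and with DESeq2 18 were called, with no adjusted p for 5. The median log2 fold change of tested members was 5.67 with the 11 that were at 0 in a group set at their bound, beside -0.13 over all genes. Those 11 passed the filter through the tumor only, and Sprr2b, Sprr2d, Lce3f, Flg and Tgm3 also did not pass it without the tumor. In the fit of the glands alone, 17 members passed. The counts therefore describe these members and support nothing further. The library with many keratinocyte-like cells (1066 of 1512 epithelial cells, against 55 of 4587 and 79 of 2531 in BPK 4NQO) is the tumor, and fewer such cells cannot be told apart from less RNA per cell in these sums.

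Among the early envelope genes, Sprr1b stood at 358 CPM in the tumor and 1.24 and 6.6 CPM in BPK 4NQO (edgeR log2 fold change 7.16, SE 0.90, adjusted p = 6.11e-13). Ivl stood at 45.3 CPM in the tumor and 0.138 and 4.95 CPM in BPK 4NQO (4.90, SE 0.67, adjusted p = 3.01e-11). Sprr1a, with 401 CPM in the tumor and 206 and 338 CPM in BPK 4NQO, did not pass (1.09, SE 0.88, adjusted p = 0.46), and neither did Sprr2a3 (42.9 CPM in the tumor, 15.8 and 23.8 CPM in BPK 4NQO, adjusted p = 0.0588). Sprr1a, the member with the highest level in treated BPK epithelium, was therefore not among those called in the tumor.

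Of the Sprr2 genes, Sprr2h stood at 72.7 CPM in the tumor and 0.165 and 0.864 CPM in BPK 4NQO (edgeR log2 fold change 7.91, SE 0.78, adjusted p = 9.31e-21). Sprr2d stood at 41.4 CPM in the tumor and 0 and 0.0786 CPM (1 UMI) in BPK 4NQO. Sprr2e, Sprr2k, Sprr2j-ps and Sprr2i had no UMI in BPK 4NQO epithelium, and against a floor of 3 counts over both libraries they were at least 417-fold, 180-fold, 159-fold and 85.1-fold higher in the tumor. Sprr2f was also called (50 CPM in the tumor, 16.8 and 8.49 CPM in BPK 4NQO, log2 fold change 2.39, SE 0.63, adjusted p = 0.00241). Sprr2d, Sprr2e, Sprr2k, Sprr2j-ps and Sprr2i are among the members that entered the test through the tumor only, so their direction was fixed by the filter.

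The Lce3 genes, late envelope genes known in human skin to be induced by barrier damage, were nearly all tumor signals. Lce3c stood at 74.3 CPM in the tumor and had no UMI in any gland, which makes it at least 1215-fold higher over BPK 4NQO. Lce3e, Lce3b and Lce3a were likewise without a UMI in BPK 4NQO (at least 168-fold, 60.3-fold and 20-fold higher in the tumor). Lce3d stood at 18.7 CPM in the tumor and 0.386 and 0.0786 CPM in BPK 4NQO, and Lce3f at 15 CPM in the tumor and 0 and 0.314 CPM in BPK 4NQO. All 6 were called higher, but only Lce3d passed the filter without the tumor, so the direction of the others was fixed by the filter. Lce1f and Lce1g, of the Lce1 group, were at least 50.9-fold and 19.0-fold higher, and they too passed the filter through the tumor only. Lce6a went the other way, at 0.249 CPM in the tumor and 3.64 and 4.79 CPM in BPK 4NQO (log2 fold change -3.56, SE 1.05, edgeR adjusted p = 0.00809).

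Krtdap, a secreted peptide of differentiating keratinocytes, stood at 1381 CPM in the tumor and 6.03 and 17.0 CPM in BPK 4NQO (edgeR log2 fold change 7.48, SE 1.09, adjusted p = 6.92e-10). Dmkn (dermokine) stood at 1343 CPM in the tumor and 16 and 42.2 CPM in BPK 4NQO (6.10, SE 1.03, adjusted p = 2.4e-07). Sbsn (suprabasin), their neighbour on chromosome 7, stood at 293 CPM in the tumor and 34.0 and 56.6 CPM in BPK 4NQO (3.22, SE 0.81, adjusted p = 0.00117). All 3 genes of this chromosome 7 stretch were called higher.

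Cnfn stood at 80.0 CPM in the tumor and 0.0826 and 0.157 CPM in BPK 4NQO (edgeR log2 fold change 9.95, SE 0.89, adjusted p = 1.43e-25). The BPK 4NQO values are 5 UMIs. Of the groups compared, only the tumor was at a level that passed the filter, so the call describes this gene only. The cross-linking enzymes differed from each other. Tgm3 stood at 18.0 CPM in the tumor and 0.0826 and 0.157 CPM in BPK 4NQO (7.79, SE 0.86, adjusted p = 7.12e-17), whereas Tgm1 stood at 16 CPM in the tumor and 9.09 and 15.7 CPM in BPK 4NQO (0.90, adjusted p = 0.371). Flg, counted under ENSMUSG00000102439, stood at 2.78 CPM in the tumor and 0 and 0.864 CPM in BPK 4NQO (3.55, SE 1.09, adjusted p = 0.0118). Tgm3 and Flg did not pass the filter without the tumor, so their calls describe these genes only. The keratins did not pass, with Krt1 at 6.39 CPM in the tumor and 1.65 and 39.8 CPM in BPK 4NQO (-1.02, adjusted p = 0.337) and Krt10 at 15.3 CPM in the tumor and 17.8 and 56.8 CPM in BPK 4NQO (-0.70, adjusted p = 0.56).

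Within keratinocyte-like cells, 6 of 21 tested members were higher in the tumor (0.519% of all genes tested) and 1 was lower (1.05%). The number of such cells no longer enters here, but the make-up of the class does. The higher ones were Lce3c (at least 36.6-fold), Sprr2e (at least 12.7-fold), Cnfn, Sprr2f, Sprr2d and Sprr2h. Among the 21, 3 were at 0 in a group. Lce3c and Sprr2e, without a UMI in these cells of BPK 4NQO, passed the filter through the tumor only. So did Sprr2f and Sprr2d, with 1 UMI each there, and the direction of these genes was fixed by the filter. Cnfn had 2 UMIs there, and of the groups compared only the tumor was at a level that passed the filter. Sprr2h stood at 83.7 CPM in the tumor and 1.47 and 18.2 CPM in BPK 4NQO (edgeR log2 fold change 3.49, SE 0.95, adjusted p = 0.0232). Krt1 was the lower one, at 7.01 CPM in the tumor and 0 and 822 CPM in BPK 4NQO (-5.46, SE 1.45, adjusted p = 0.0194), a value that turned to 9.22 without replicate 2. Krt10 did not pass (-4.72, SE 1.44, adjusted p = 0.0582). Krtdap stood at 1588 CPM in the tumor and 309 and 355 CPM in BPK 4NQO (2.61, adjusted p = 0.315), and Sprr1b at 412 CPM in the tumor and 64.8 and 131 CPM in BPK 4NQO (2.44, adjusted p = 0.273). Neither passed. The 7 calls in this class were all lost under DESeq2, which gave no adjusted p for 13 of the 21 members, and when doublets were kept, where 0 of 8806 genes were called (498 at an unadjusted p under 0.05). The median log2 fold change of the tested members was 2.61, and 2.49 and 2.64 under these alternatives. Without the group of 56 tumor cells described below, the median was 1.19. Then 1 of 18 tested members was called higher and 1 lower, beside 40 higher and 113 lower among 8670 genes.

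Member UMIs were unevenly spread over the tumor's keratinocyte-like cells. Of 19 sub-clusters, 1 group of 56 cells, led by Crct1, Spink5, Cst6, Calm4 and Cdsn, held 4.20% of the UMIs of the class and 33.7% of its member UMIs. Crct1 lies in the epidermal differentiation complex, Spink5 and Cst6 encode inhibitors of the proteases of the outer skin layers, and Cdsn encodes corneodesmosin. The group's summed member level was 38329 CPM, and the lowest sub-cluster, of 67 cells, had 861 CPM. Median depth of the group was 28251.5 UMIs, below the 38211.5 of the whole class. The group was found by clustering the same cells, so these values are descriptions and no test was made.

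The members differed in how far they were concentrated there. Tgm3 had 89.5% of its keratinocyte-like UMIs in this group, Sprr2f 81.4%, Cnfn 81.3%, Sprr2e 77.1% and Lce3c 76.7%. Lower shares were found for Krtdap (24.9%), Dmkn (18.8%), Ivl (15.7%), Sprr2a3 (11.1%) and Krt10 (5.91%). Sprr1a (61.2%) and Sprr1b (49.5%) lay between these. Krt1 had the highest of these shares (95.5%), but 221 of its 289 tumor keratinocyte-like UMIs were in 1 cell.

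In CPM, Krtdap stood at 9419 in these 56 cells and 1245 in the rest of the class, with a UMI in 100% and 95.2% of cells. Sprr1a stood at 5056 CPM in these cells and 140 CPM in the rest, and Lce3c at 1567 CPM and 20.8 CPM, with a UMI in 73.2% and 25.8% of cells. Crnn, the gene of cornulin, was the exception among members seen mainly in the tumor, with 0 of 18 UMIs in this group and 10 of 18 in another sub-cluster of 26 cells. When the 56 cells were left out, the whole-epithelium difference between tumor and BPK 4NQO for Sprr2f was 0.56 (edgeR adjusted p = 0.611), and Flg turned to -0.68.

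**Figure D5:**
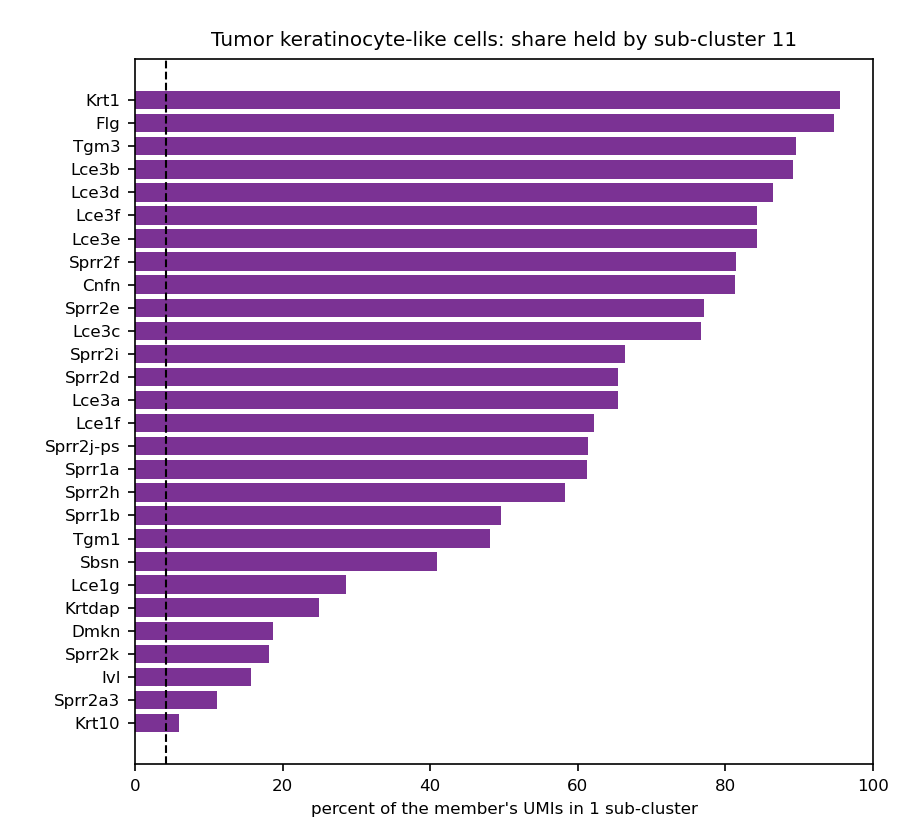
Share (percent) of each member's UMIs in tumor keratinocyte-like cells that lay in the sub-cluster of 56 cells, for the 28 members with at least 50 UMIs there, with a dashed line at the sub-cluster's 4.20% of all UMIs of the class. Every bar lies above the line, from 5.91% for Krt10 to 95.5% for Krt1.

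Outside keratinocyte-like cells, tumor levels were set beside those of endothelium-like cells of the same library, which should lack these genes. In hormone-sensing cells 5 of 15 tested members were higher in the tumor (2.19% of all genes tested) and 1 was lower (1.27%), with 2 of the 15 at 0 in a group. The higher ones were Krtdap (94.6 CPM in the tumor, 0.183 and 0 CPM in BPK 4NQO), Dmkn (125 CPM in the tumor, 3.65 and 4.09 CPM in BPK 4NQO), Sprr1b, Lce3c and Cnfn. Of these, only Dmkn passed the filter without the tumor, so the direction of the others was fixed by the filter. In the tumor's endothelium-like cells Krtdap stood at 70.2 CPM, Dmkn at 96.0 CPM, Sprr1b at 18.1 CPM (27.3 CPM in hormone-sensing cells), Lce3c at 4.13 CPM (9.10) and Cnfn at 7.22 CPM (6.33). Cnfn thus stood below its endothelial level in tumor hormone-sensing cells, and the other 4 stood above theirs. In the tumor's macrophage-like cells all 5 stood above their hormone-sensing levels, with Krtdap and Dmkn at 147 CPM each. Sprr1b stood there at 43.0 CPM, Lce3c at 9.71 CPM and Cnfn at 12.5 CPM. The 14 keratinocyte markers summed to 7025 CPM in tumor hormone-sensing cells and 1093 and 1424 CPM in those of BPK 4NQO, and neither their part nor that of free RNA in the result was tested.

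Sprr1a, Sprr2a3 and Tgm1 stood further above their endothelial levels, at 1029, 167 and 33.6 CPM in tumor hormone-sensing cells, with 22.7, 1.55 and 2.06 CPM in tumor endothelium. None of these 3 passed the test between tumor and BPK 4NQO in hormone-sensing cells. Sprr2f was the lower one, at 2.77 CPM in the tumor, which is close to the 2.58 CPM of its endothelium, and 35.3 and 11.1 CPM in BPK 4NQO (edgeR log2 fold change -3.08, SE 0.93, adjusted p = 0.0312). This call was lost under DESeq2 (-3.02, adjusted p = 0.192) and with unnamed clusters placed in their best class (-1.84, edgeR adjusted p = 0.386), and the sign turned under the per-cell gate (0.53).

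In alveolar cells 5 of 13 tested members, of which 3 were at 0 in a group, were higher in the tumor (0.871% of all genes tested), namely Krtdap, Dmkn, Cnfn, Sprr2f and Sprr2a3. Krtdap and Cnfn did not pass the filter there without the tumor, so their direction was fixed by the filter. Krtdap (60.1 CPM) and Dmkn (191 CPM) were again in the range of other classes of the tumor. Sprr2f stood at 247 CPM in the tumor and 1.86 and 12.2 CPM in BPK 4NQO, but 187 of its 230 tumor UMIs were in 1 of 44 cells. In basal cells 4 of 8 were higher (1.39% of all genes tested). Dmkn stood there at 405 CPM in the tumor and 9.72 and 20.2 CPM in BPK 4NQO (edgeR log2 fold change 4.95, SE 0.74, adjusted p = 1.19e-08), above the 96.0 CPM of tumor endothelium. The others were Krtdap (99.7 CPM in the tumor), Sprr1b (24.1 CPM) and Sbsn (78.7 CPM in the tumor, 13 and 12.8 CPM in BPK 4NQO). Krtdap and Sprr1b did not pass the filter in basal cells without the tumor, so their direction was fixed by the filter. Both stood below their 147 and 43.0 CPM in tumor macrophage-like cells.

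The neighbours Sbsn, Dmkn and Krtdap were not limited to epithelium. In fibroblast-like cells Sbsn stood at 159 CPM in the tumor, 187 and 116 CPM in BPK 4NQO, 86.9 CPM in PK 4NQO and 109 CPM in BPK vehicle. Dmkn stood there at 226 CPM in the tumor, 132 and 45.2 CPM in BPK 4NQO, 72.4 CPM in PK 4NQO and 67.1 CPM in BPK vehicle. After thinning, a Sbsn UMI was found in 19.9% of fibroblast-like cells in the tumor, 13.6% and 12.4% in BPK 4NQO, 11.1% in PK 4NQO and 11.3% in BPK vehicle. The shares in endothelium-like cells were 1.31% in the tumor, 0.853% and 0.604% in BPK 4NQO, 1.45% in PK 4NQO and 0.674% in BPK vehicle. Sbsn was thus above the endothelial background in fibroblast-like cells of every library. Krtdap stood in fibroblast-like cells at 109 CPM in the tumor, 28.7 and 18.2 CPM in BPK 4NQO, 25 CPM in PK 4NQO and 55.2 CPM in BPK vehicle, and in the glands its level in endothelium was at most 0.690 CPM.

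Many classical late genes had few UMIs or none. Sprr3, Sprr4, Lce1i, Lce1j, Lce1k, Flg2, Hrnr and 5 of the 7 Flg identifiers had no UMI in any library. Lor, the main protein of the epidermal envelope, had 218 UMIs in all and stood at 1.14 CPM of epithelial UMIs in the tumor, 0.909 and 0.786 CPM in BPK 4NQO, 0.688 CPM in PK 4NQO and 0.875 CPM in BPK vehicle. Its level in the tumor was thus 1.30 times that in BPK 4NQO (exact 95% interval of the counts 0.857 to 1.99). Lor was 1 of 28 members outside those chosen for values per library, 16 of them with a UMI, and none of these exceeded 1.14 CPM in all epithelial cells of any library. Of the 57 members, 33 passed the filter on low counts in at least 1 test and 24 never did.

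Near-identical sequence limits some counts. Of the windows of 90 bases in the transcripts, 93.2% of those of Sprr2a1 and 93.6% of those of Sprr2a2 also occurred in another gene, and 40.6% of those of Sprr2a3, all among these 3 genes and Sprr2b. Sprr2a1 and Sprr2a2 had 13 and 3 UMIs, so that the Sprr2a3 count may hold or lack reads of its copies. Lce3c, Lce3d, Lce3e and Lce3f shared 25.7% to 44.1% of windows with other Lce3 genes, and Sbsn shared 24.9% of its 3' windows with Tmem147os.

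Lists of other epidermal genes were read in the same comparisons, with log2 fold changes given in parentheses. The shares of all genes tested that were called are the same for each list, 7.68% higher and 7.81% lower in the tumor than in BPK 4NQO, and 0.412% and 0.286% higher in BPK 4NQO than in BPK vehicle and PK 4NQO. Among 20 barrier lipid and protease genes tested over all epithelial cells, 10 were higher and 2 lower in the tumor than in BPK 4NQO (median log2 fold change 2.58, beside -0.13 over all genes). The higher ones included Alox12b (8.31), a lipoxygenase of the lipid envelope, and the kallikrein genes Klk10 (6.41) and Klk8 (6.38), and the lower ones were Alox12e (-2.96) and Serpinb3a (-4.82). Against BPK vehicle 5 of 17 were higher in BPK 4NQO, namely Klk6 (5.30), Serpinb2 (4.50), Alox12e (3.74), Spink5 (3.33) and Serpinb3a, with a median of 0.80. Serpinb3a had no UMI in vehicle epithelium or in BPK 4NQO replicate 1. Its call could thus only be higher and rests on replicate 2, and no fold is given. Against PK 4NQO 3 of 17 were higher, namely Klk6 (4.88), Serpinb2 (4.65) and Spink5 (3.16), with a median of 0.81. Klk6 encodes a protease, while Serpinb2 and Spink5 encode protease inhibitors.

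Of 17 other keratins, 8 were higher and 1 lower in the tumor than in BPK 4NQO, led by Krt6b (6.53), Krt6a (6.48) and Krt16 (5.41), keratins of wounded and hyperproliferative epidermis. Krt6b was also the 1 keratin called higher in BPK 4NQO over BPK vehicle and over PK 4NQO, neither of which had a Krt6b UMI in epithelium. It thus passed the filter of the glands through BPK 4NQO only, and its direction was fixed by the filter. Some of these keratins named the cell classes and are not independent of them. Of the 17 other genes of the complex, 10 were higher in the tumor and none was called in either gland comparison. They included Pglyrp3, a peptidoglycan recognition gene, and S100a9 (5.01), which is also a neutrophil gene. Pglyrp3 had no UMI in BPK 4NQO epithelium, so its call could only be higher.

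Of 13 scaffold and desmosome genes 6 were higher in the tumor, among them Csta1 (6.18), a cystatin, and Cdsn (4.25). Csta1 was the 1 of 12 called higher in BPK 4NQO over BPK vehicle, where it had no UMI, and 0 of 12 were called over PK 4NQO. With no UMI in BPK vehicle, the Csta1 call could only be higher. Of 25 regulators of keratinocyte differentiation 6 were higher in the tumor, including Grhl3 (4.11), Trp63 (3.83) and Fosl1 (2.52), with a median of 0.28. None of the 25 was called in either gland comparison by edgeR, with medians of 0.20 over BPK vehicle and -0.02 over PK 4NQO.

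Across the 20 sums of 5 libraries and 4 epithelial classes, the genes whose level was most like the summed member level, among 3881 genes with a mean of at least 32 CPM, were Dynlt3 (Pearson r = 0.919), Fgfbp1 (0.915), Lad1 (0.883), Rala (0.882) and Avpi1 (0.876). Sums of 1 library share its depth and free RNA, so these values are a description.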

How the data were processed

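The authors deposited raw UMI counts for each gene in each cell barcode. Cell Ranger was used with mm10, at version 3.0.2 in the PK library and 5.0.1 elsewhere, per the submitters' processing notes. Libraries used 10x 3' v2 chemistry, per the labels' protocols. For the annotation and cell calling, settings were not given in the sources used here. Injected doses were not used, because their unit in the labels is in doubt.

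Barcodes with under 300 genes or over 20% mitochondrial counts were left out. Doublets were scored with scrublet in scanpy 1.11.5 and the top 0.8% per 1000 barcodes were removed, 2025 in all. Counts were log-scaled and clustered on 2000 variable genes without the members, with 30 principal components and Leiden (leidenalg 0.10.2) at resolution 1, then within epithelium of each library at resolution 3. Clusters were named from markers, with at least 3 found in at least 25% of cells. The resolution and the naming thresholds were revised after seeing the data, and clusters that missed them stayed unnamed but count among all epithelial cells. Python 3.11.15, numpy 2.4.6 and scipy 1.17.1 were used.

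Counts were summed per library and class of at least 30 cells and tested with edgeR 4.0.16 (quasi-likelihood, TMM, filterByExpr by group) in R 4.3.3 on all 5 libraries, with p-values adjusted over all genes tested by Benjamini-Hochberg and calls at 0.05. DESeq2 1.42.0 was an alternative. The test was checked on simulated data, where it found 100%, 98.5% and 100% of genes changed 64-fold (BPK 4NQO over vehicle, over PK, and tumor over BPK 4NQO). Shares and ratios have exact 95% intervals, which cover counting error only, as does the floor of 3 counts.

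Per-library values are given for members called in any test and the 15 with the highest mean level in all epithelial cells, 29 in all. Members and lists were chosen with earlier results of these data known. The groups compared share fewer than 2 replicate numbers. Alternatives were another normalization, no filter, DESeq2, doublets kept, a mitochondrial limit of 10%, a per-cell marker gate, only the compared libraries, other thinning and leaving out each BPK 4NQO library. Those that put unnamed clusters in their best class, left out the 56-cell tumor group or left out the richest cell of each member were added after seeing the data. The protein sequences of the members were not analysed here.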

Additional observations from a re-analysis of the deposited data

Results flagged for a closer look

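Sprr2f differed between tumor and BPK 4NQO in opposite directions in different epithelial classes. Its log2 fold change of the tumor over BPK 4NQO was -3.08 in hormone-sensing cells, 5.46 in alveolar cells and 6.38 in keratinocyte-like cells, each past the edgeR threshold. The difference between the classes was not tested. In hormone-sensing cells the value was -3.02 with DESeq2 (adjusted p = 0.192) and 0.53 under the per-cell gate, so the opposite direction does not hold there under the gate. In keratinocyte-like cells DESeq2 gave 6.29 with no adjusted p, and with doublets kept it was 6.41 (edgeR adjusted p = 0.8). The tumor held 7 Sprr2f UMIs in hormone-sensing cells, 230 in alveolar cells (187 of them in 1 cell) and 2156 in keratinocyte-like cells, and BPK 4NQO held 627, 89 and 1. In keratinocyte-like cells Sprr2f passed the filter through the tumor only, so its direction there was fixed by the filter.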

How the results depend on the processing

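With DESeq2, called members over all epithelial cells numbered 1 over BPK vehicle (2 with edgeR) and 1 over PK 4NQO (3 with edgeR), and counts of called genes dropped to 30 (from 73) and 14 (from 48). In the tumor comparison DESeq2 called 18 members (24) and 2084 genes (2410). DESeq2 gave 0 and 0 for alveolar cells over vehicle and PK (1 each with edgeR), 2 for basal cells of the tumor (4), 0 for keratinocyte-like cells over PK (1) and 0 for those of the tumor (7). Over all genes in hormone-sensing cells it called 4 over vehicle (38) and 4 over PK (26).

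The per-cell gate, in which 22.1% of gated cells lay near the boundary of another class, gave 1 over PK in all epithelial cells (3), and in the tumor 3 in hormone-sensing cells (6), 10 in basal cells (4) and 14 in keratinocyte-like cells (7), where calls over all genes moved to 215 (441), 1680 (225) and 714 (136). With doublets kept, the keratinocyte-like calls of the tumor numbered 0 for members and 0 for all genes, with the members' median log2 fold change at 2.64 (2.61). In hormone-sensing cells, where none was called, fitting only the compared libraries gave 1 over vehicle and 1 over PK (Ivl in both), no filter gave 1 over PK (Ivl), and leaving out the richest cell gave 1 over PK (Sprr2f). Without the richest cell, counts were 0 for alveolar cells over vehicle, 1 for basal cells over vehicle (Sprr1a) and 0 for keratinocyte-like cells over PK, where no filter also gave 0. Without the 56-cell tumor group, 2 keratinocyte-like calls were left. The cause of these shifts was not tested.

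Signs turned for Flg in the tumor over all epithelial cells without the 56-cell group (-0.68), for Sprr2f in tumor hormone-sensing cells under the gate (0.53), and for Krt1 when 1 BPK 4NQO library was left out. Krt1 over PK was 3.97 without replicate 1 and -0.26 without replicate 2, and in tumor keratinocyte-like cells -6.38 and 9.22. Of 108 values with 1 BPK 4NQO library left out, 106 kept their sign; counts of calls could not be made there, since no residual degrees of freedom are left. Of 470 tested alternatives for single members, 425 kept direction and call and 43 lost the call. Some of those kept could not change, because the setting left the class as it was. Leaving out the 56-cell group, for example, did not touch hormone-sensing, alveolar or basal cells. The summed tumor level was 4322 CPM at the stricter mitochondrial limit and 4316 CPM with doublets kept (4349).

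At 1000 UMIs the share of cells with a member UMI was 69.0% in the tumor, 16% and 16.6% in BPK 4NQO, 10.7% in PK 4NQO and 10.9% in BPK vehicle for all epithelial cells, and 57.9%, 24.1%, 25.8%, 11.8% and 14% for hormone-sensing cells in the same order. Unthinned, it was 98.7%, 49.4%, 34.7%, 38.7% and 44.5%, and 97.9%, 58.3%, 49.2%, 39.3% and 44.9%. No paired analysis was possible because the groups compared share fewer than 2 replicate numbers. With 1 library in 3 of 4 groups and few keratinocyte-like cells in glands, calls in that class rest on a handful of cells.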
